A study of Mus musculus with 8 samples.

Results

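The genes described here are 10 that mark macrophages and microglia: Csf1r, Cx3cr1, Mrc1, Adgre1, C1qa, C1qb, C1qc, Cd68, Lyz2 and Cd74. They were chosen by name as markers, with earlier results of these data known, and make up 10 of the 31053 genes counted in each library. Transcripts were read at their 3′ ends (QuantSeq) in eyecups of the retinal pigment epithelium (RPE), taken from C57/Bl6 mice at postnatal day 11 (P11). The comparison was between 4 libraries of wild type mice (Bbs8+/+) and 4 libraries of mice lacking Bbs8 (Bbs8-/-), with no treatment in either group. Bbs8, listed in the annotation as Ttc8, encodes a subunit of the BBSome, a complex that carries membrane proteins to and from the primary cilium. The labels name no Cre driver or tissue restriction for the deletion, so every cell type of the eyecup in the Bbs8-/- group came from a mutant animal. After removal of cornea, lens, retina and optic nerve, an eyecup still holds the RPE with the choroid and sclera behind it. Macrophages of these outer layers are therefore part of the sample.

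Macrophages are phagocytes that clear debris and present antigen, and microglia are their counterparts in the retina and brain. Their survival depends on signalling through the receptor Csf1r, whose ligands are Csf1 and Il34. Choroidal macrophages lie among the vessels behind the RPE, and microglia normally sit in the neural retina. The genes fall into 4 roles here: surface receptors (Csf1r, Cx3cr1, Mrc1, Adgre1), the 3 chains of the complement initiator C1q (C1qa, C1qb, C1qc), proteins of the phagocyte's granules and lysosomes (Cd68, Lyz2), and the chaperone of antigen presentation by MHC class II (Cd74).

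Gene counts summed to between 1636725 and 2884983 per library, so that 3 counts, taken as the floor of detection, stood for 1.04 to 1.83 CPM, the count scaled to a common library total. Ttc8, the targeted gene, was at 14.6 to 21.6 CPM in Bbs8+/+ and fell to between 2.29 and 9.7 CPM in Bbs8-/-, a log2 fold change of -1.95 (edgeR quasi-likelihood test, FDR = 2.74e-06). Which exons are deleted is not given in the sources used here. Libraries of one genotype differed from each other by more than counting error, with a mean chi-square per gene of 1.87 to 3.08 over the 12 pairs, against 1 for counting error alone, and no pair held identical values. Xist and Y-linked genes were counted in every library, and Y-linked genes made up 8.19% ± 0.508 of Y-linked and Xist CPM together in Bbs8+/+, beside 16.2% ± 1.14 in Bbs8-/- (SD, n = 4 per genotype). The study's methods take each animal as a biological replicate, whereas RNA of both sexes was found in each library, so how many animals gave a library stays unsettled here, and p-values measure only the spread between these libraries. Reads outside annotated genes were 42.1% to 43.4% in Bbs8+/+ and 44.1% to 44.4% in Bbs8-/-, without overlap, and the part of this difference in the values below was not tested.

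All 10 genes passed the filter on low counts. In Bbs8-/- eyecups 2 of them rose past FDR 0.05, the receptor Csf1r and the lysozyme gene Lyz2, and 0 fell. Among all 13813 tested genes, 1.10% rose and 1.14% fell at the same threshold. The other 8 genes did not pass the test. The fitted log2 fold change was above 0 for 9 of the 10 genes and below 0 for Mrc1, with a median of 0.30 over the 10 genes and of -0.00407 over all tested genes. At an unadjusted p under 0.05, the count was also 2 of 10, beside 13% of all tested genes. In a bulk library, more macrophages and more RNA of these genes per macrophage cannot be told apart.

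**Figure D1:**
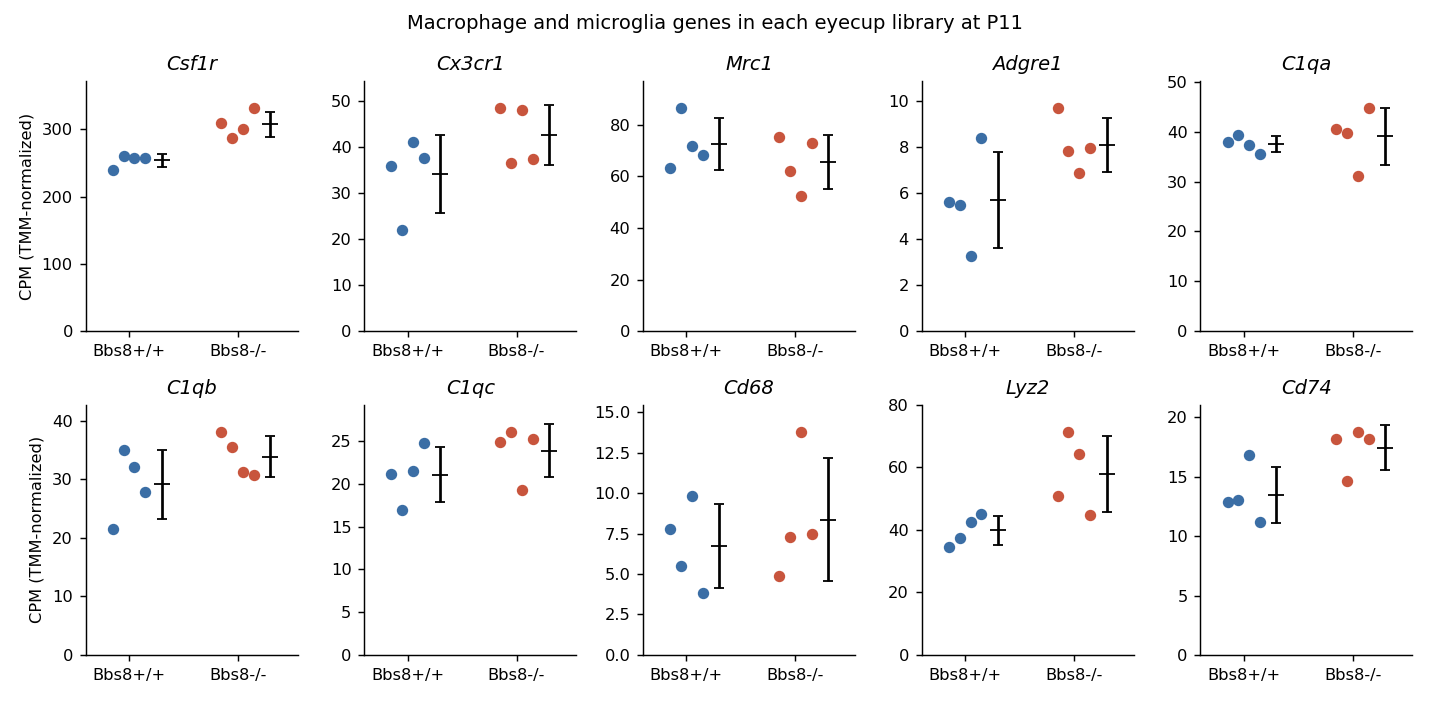
Level of each of the 10 genes in TMM-normalized CPM (y axis, from 0) in the 4 Bbs8+/+ libraries (blue) and the 4 Bbs8-/- libraries (red), with 1 point per library and the mean ± SD in black. The Csf1r points of the genotypes are apart (239 to 260 against 287 to 332 CPM), and for the other 9 genes the ranges overlap.

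Regulatory sequence was available for 6 of the 10 genes, as RefSeq promoter windows of build GRCm38.p6. The window examined was the 250 bases before the annotated start. It was searched on both strands for GAGGAA, the core of the site bound by PU.1, the transcription factor (encoded by Spi1) that drives the macrophage program. The motif was present in 4 of these 6 windows, and in 23.3% of all 32851 windows of that length. Cd68, C1qb, C1qc and Mrc1 held it, and Lyz2 and Cx3cr1 did not, which says only that these letters were missing from this window. Below are the runs of Lyz2, which passed the genotype test, of Mrc1, the gene with the most matches and a fitted value below 0, and of C1qb, a C1q chain with 1 match. They are written 5′ to 3′ in the direction of the gene, up to the RefSeq start (C1qb) or, where that lies inside it, the GENCODE gene model (Lyz2 and Mrc1), with the motif, or its reverse complement TTCCTC, in capitals.
Lyz2 (chr10:117282322-117282522, minus strand): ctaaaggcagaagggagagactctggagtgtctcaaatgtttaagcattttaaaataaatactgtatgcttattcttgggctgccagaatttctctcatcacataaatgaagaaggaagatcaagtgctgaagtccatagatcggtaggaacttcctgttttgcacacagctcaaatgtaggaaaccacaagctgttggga
Mrc1 (chr2:14229164-14229391, plus strand): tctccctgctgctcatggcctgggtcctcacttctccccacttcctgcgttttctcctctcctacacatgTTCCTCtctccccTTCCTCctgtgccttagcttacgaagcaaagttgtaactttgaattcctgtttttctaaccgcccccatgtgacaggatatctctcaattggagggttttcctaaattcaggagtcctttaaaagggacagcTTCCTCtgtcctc
C1qb (chr4:136886201-136886450, minus strand): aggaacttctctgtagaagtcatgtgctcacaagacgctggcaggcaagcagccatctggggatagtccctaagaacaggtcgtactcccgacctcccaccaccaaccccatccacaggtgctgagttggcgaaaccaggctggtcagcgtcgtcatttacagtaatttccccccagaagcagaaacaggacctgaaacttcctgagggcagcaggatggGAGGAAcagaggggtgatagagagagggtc

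The level of a 3′ tag is not divided by gene length, because a transcript is read only at its 3′ end. On this scale Csf1r was by far the most abundant of the 10 genes in Bbs8+/+ eyecups, with a mean of 254 CPM, followed by Mrc1 at 72.5 CPM. Lyz2 (39.8 CPM), C1qa (37.5 CPM), Cx3cr1 (34.1 CPM), C1qb (29.2 CPM) and C1qc (21.1 CPM) formed a middle range in which each gene overlapped the next over the 4 libraries. Cd74 (13.5 CPM) did not overlap C1qc, and Cd68 (6.73 CPM) and Adgre1 (5.69 CPM) were the lowest and overlapped each other. Csf1r alone gave 48.3% to 49.9% of the summed CPM of the 10 genes in Bbs8+/+ and 48.8% to 53.5% in Bbs8-/-. Its level was 6.31 to 7.25 times that of C1qa in the Bbs8+/+ libraries and 7.22 to 9.62 times in the Bbs8-/- libraries.

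Csf1r (ENSMUSG00000024621, mm10 chr18:61100598-61132149, plus strand) encodes the receptor tyrosine kinase for Csf1 and Il34. It was counted at 239, 260, 258 and 258 CPM in the Bbs8+/+ libraries and at 310, 287, 300 and 332 CPM in the Bbs8-/- libraries. Every Bbs8-/- library lay above every Bbs8+/+ library, which held for 3.62% of all tested genes and for no other gene of the 10. The reverse order held for 3.76% of all tested genes and for 0 of the 10. The log2 fold change was 0.28 ± 0.07 (SE), a fold of 1.21 (edgeR quasi-likelihood test, FDR = 0.0104). Its libraries scattered little more than counting allows, at 1.29 times counting error within genotype, where the median gene with at least 80 counts scattered at 1.97 times. The call was lost when either of 2 libraries was left out, with an FDR of 0.0595 without Bbs8+/+ replicate 1 and of 0.0961 without Bbs8-/- replicate 4. The last 873 bases of Csf1r lie under Hmgxb3 on the opposite strand, and all 401 windows of 100 bases in the last 500 bases of the transcript were also found in Hmgxb3 transcripts. Whether reads were counted by strand was not stated. Hmgxb3 itself had 12 to 55 counts per library, beside 511 to 740 for Csf1r.

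Cx3cr1 (ENSMUSG00000052336, chr9:119901616-120069879, minus strand) encodes the receptor for fractalkine, a chemokine displayed by neurons and endothelium. It was at 35.8, 22, 41.1 and 37.7 CPM in Bbs8+/+ and at 48.5, 36.5, 48.1 and 37.4 CPM in Bbs8-/-. A pair of Bbs8-/- libraries stood above all the Bbs8+/+ libraries, while the other pair lay inside their range. The log2 fold change was 0.32 ± 0.17 (SE, FDR = 0.399, edgeR quasi-likelihood test), and 0.16 without Bbs8+/+ replicate 2, the lowest library. Its gene model overlaps 9 other annotated genes.

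Mrc1 (ENSMUSG00000026712, chr2:14229392-14332057, plus strand), the mannose receptor CD206 of tissue macrophages, was the exception in direction. It was at 63.3, 86.5, 71.9 and 68.1 CPM in Bbs8+/+ and at 75.2, 62.1, 52.3 and 72.8 CPM in Bbs8-/-. The ranges overlapped widely, and the log2 fold change of -0.15 ± 0.13 did not pass the test (FDR = 0.68). It was -0.05 without Bbs8+/+ replicate 2 and also without Bbs8-/- replicate 3. Adgre1 (ENSMUSG00000004730, chr17:57358691-57483527, plus strand), which encodes the F4/80 antigen used to stain mouse macrophages, was near the floor at 7 to 24 counts per library. It was at 3.27 to 8.38 CPM in Bbs8+/+ and 6.88 to 9.7 CPM in Bbs8-/-, and its log2 fold change of 0.47 had a 95% interval of -0.27 to 1.21. The value was 0.30 without Bbs8+/+ replicate 3 and 0.73 without Bbs8+/+ replicate 4.

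The C1q chains are encoded side by side on the minus strand of chromosome 4, with C1qb at 136880129-136886187, C1qc at 136889804-136893065 and C1qa at 136895917-136898803. They assemble into one molecule that starts the classical complement pathway. C1qa (ENSMUSG00000036887) was at 37.9, 39.3, 37.4 and 35.6 CPM in Bbs8+/+ and 40.6, 39.7, 31.2 and 44.8 CPM in Bbs8-/-. Its Bbs8-/- libraries lay on either side of the Bbs8+/+ range. C1qb (ENSMUSG00000036905) was at 21.5, 35, 32.2 and 27.9 CPM in Bbs8+/+ and 38.2, 35.5, 31.2 and 30.8 CPM in Bbs8-/-. C1qc (ENSMUSG00000036896) was at 21.1, 16.9, 21.5 and 24.8 CPM in Bbs8+/+ and 24.9, 26.1, 19.3 and 25.2 CPM in Bbs8-/-. None of the 3 chains passed the test. Their log2 fold changes were 0.06, 0.21 and 0.17 with 95% intervals of -0.26 to 0.37 for C1qa, -0.14 to 0.56 for C1qb and -0.24 to 0.58 for C1qc. A single library moved each of these values: C1qa was -0.02 without Bbs8-/- replicate 4, C1qb 0.10 without Bbs8+/+ replicate 1 and C1qc 0.08 without Bbs8+/+ replicate 2. The chains summed to 80.6 to 91.2 CPM in Bbs8+/+ and to 81.6 to 104 CPM in Bbs8-/-. C1qa made up 42.9% ± 3.03 of it in Bbs8+/+ libraries and 40.3% ± 2.83 in Bbs8-/- libraries (SD, n = 4 per genotype).

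Lyz2 (ENSMUSG00000069516, chr10:117277331-117282321, minus strand), the lysozyme gene of macrophages and granulocytes, rose by a larger fold than Csf1r. It was at 34.5, 37.4, 42.5 and 45 CPM in Bbs8+/+ and at 50.9, 71.5, 64.2 and 44.8 CPM in Bbs8-/-. All but Bbs8-/- replicate 4 stood above the Bbs8+/+ libraries, and that library lay just under the highest of them. The log2 fold change was 0.54 ± 0.15 (SE), a fold of 1.45 (FDR = 0.0229, edgeR quasi-likelihood test). Its scatter within genotype was 3.25 times counting error, wider than that of Csf1r. The call was lost with the DESeq2 Wald test (adjusted p = 0.0667), after thinning the libraries to equal depth (FDR = 0.208), and without Bbs8+/+ replicate 1 (0.0948), Bbs8+/+ replicate 2 (0.085), Bbs8-/- replicate 2 (0.195) or Bbs8-/- replicate 3 (0.128). The neighbouring copy Lyz1 had 0 to 1 counts per library, and 5 of the 401 windows at the 3′ end of Lyz2 were also found in Lyz1 transcripts.

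Cd68 (ENSMUSG00000018774, chr11:69664213-69666153, minus strand) encodes a lysosomal membrane protein of phagocytes. It was at 7.75, 5.5, 9.81 and 3.84 CPM in Bbs8+/+ and at 4.85, 7.31, 13.8 and 7.47 CPM in Bbs8-/-. The highest library was Bbs8-/- replicate 3, and the others lay in a common range. Its log2 fold change of 0.36 had a 95% interval of -0.36 to 1.08 (FDR = 0.763) and was -0.000474 without that library.

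Cd74 (ENSMUSG00000024610, chr18:60803848-60812652, plus strand) encodes the invariant chain, which holds MHC class II molecules until they meet peptide, and is also a receptor for Mif. It was at 12.9, 13, 16.8 and 11.2 CPM in Bbs8+/+ and at 18.2, 14.6, 18.8 and 18.2 CPM in Bbs8-/-. A single library of each genotype, Bbs8+/+ replicate 3 and Bbs8-/- replicate 2, made the ranges overlap. The log2 fold change of 0.38 ± 0.25 (SE) did not pass the test (FDR = 0.547).

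**Figure D2:**
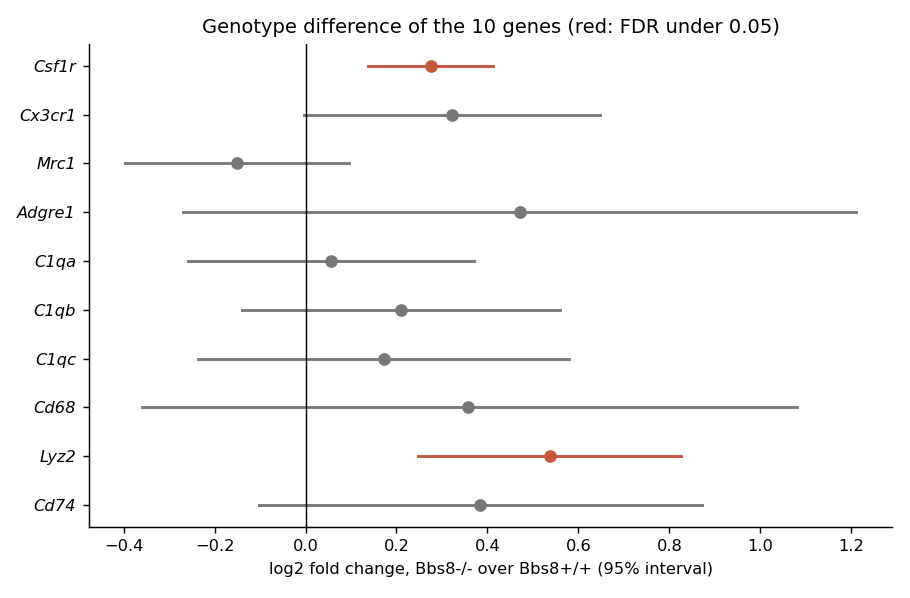
Log2 fold change of Bbs8-/- over Bbs8+/+ (x axis) for each of the 10 genes (y axis), with points for the edgeR estimate and lines for its 95% interval. Csf1r and Lyz2, in red, passed FDR 0.05, and the intervals of the other 8 genes, in grey, include 0.

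The 10 genes summed to 480, 521, 535 and 521 CPM in Bbs8+/+ and to 621, 588, 586 and 622 CPM in Bbs8-/-. Without Csf1r the sum of the other 9 was 260 ± 14.9 CPM in Bbs8+/+ but 297 ± 11.6 CPM in Bbs8-/- (SD, n = 4 per genotype), with ranges of 240 to 276 and 286 to 311 CPM that did not overlap. Without Lyz2 as well, a sum added after seeing the data, the ranges of the remaining 8 genes overlapped, at 206 to 234 CPM in Bbs8+/+ and 221 to 260 CPM in Bbs8-/-. Variation from library to library was examined with the genotype mean removed. Over the 45 pairs of genes and 8 libraries, Pearson's r of the deviations ran from -0.84 to 0.78 with a median of 0.04, and 24 pairs were positive and 21 negative. The lowest r was between Cd68 and Adgre1 (rho = -0.81, exact permutation p = 0.0139 for r and 0.0278 for rho, and r = -0.79 without the 2 most distant libraries). The highest was between C1qa and Mrc1 (rho = 0.79, exact permutation p = 0.026 for r and 0.0208 for rho, and r = 0.65 without the 2 most distant libraries). No pair passed after Benjamini-Hochberg adjustment over the 45 pairs, with a smallest adjusted p of 0.586 for r and 0.625 for rho.

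Further lists held other genes of macrophages and of the pathways of the 10 genes. Of 66 further genes in 8 lists, 61 were tested and 0 passed FDR 0.05 in either direction by edgeR, and 14 of them (23%) had an unadjusted p under 0.05, beside 13% of all tested genes. Of the 61, 37 had a log2 fold change above 0 and 24 below, with a median of 0.06. The summed level of 3 of the 8 lists was lower in every Bbs8-/- library than in any Bbs8+/+ library, opposite in direction to the sum of the 10 genes. These were the myeloid transcription factors (314 ± 5.03 and 278 ± 21 CPM in Bbs8+/+ and Bbs8-/-), the classical complement partners of C1q (448 ± 28.3 and 400 ± 12.7 CPM) and the phagocyte lysosome (5234 ± 114 and 4985 ± 67.1 CPM). With library totals in place of TMM the means kept this direction, but the genotypes overlapped in all 3 lists, and with RLE size factors they overlapped for the transcription factors. Sums were also taken without the most abundant gene of each list. Without Cst3 the other 7 lysosome genes summed to 1088 ± 45.1 and 1109 ± 36.8 CPM, without Serping1 the other 5 complement genes to 115 ± 12.4 and 97.2 ± 4.37 CPM with overlap, and without Maf the other 6 transcription factors to 105 ± 2.74 and 97.8 ± 2.73 CPM without overlap. Sums of the other 5 lists overlapped between the genotypes, except that with RLE size factors the shared myeloid receptors and adaptors were higher in every Bbs8-/- library (exact permutation p = 0.0286). Among the ligands of these receptors, Mif was the most abundant (log2 fold change of 0.12, FDR = 0.403). The lowest p belonged to Cx3cl1, the fractalkine gene, at 8.41 to 13.3 CPM in Bbs8+/+ and 3.74 to 8.71 CPM in Bbs8-/- (log2 fold change of -0.79, FDR = 0.264). Csf1 and Il34, the ligands of Csf1r, had log2 fold changes of -0.44 and 0.36 (FDR = 0.492 and 0.427).

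Among 7 myeloid transcription factors, 3 values were above 0 and 4 below. Maf, the most abundant of them and also the one with the lowest p, had a log2 fold change of -0.21 (FDR = 0.198). Spi1, which encodes PU.1, was at 3.93 to 7.75 CPM in Bbs8+/+ and 7.8 to 11.5 CPM in Bbs8-/- (log2 fold change of 0.64, FDR = 0.469). The list of 13 receptors and adaptors shared by myeloid cells had 11 values above 0 and 2 below, with a median of 0.20. Its most abundant gene was Sirpa, the receptor that reads the "do not eat me" signal (log2 fold change of -0.20, FDR = 0.68), and its lowest p belonged to Ptprc, the pan-leukocyte CD45 (0.50, FDR = 0.33).

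Markers split macrophages of borders and tissues from microglia. Of 12 border and tissue macrophage markers, 9 were tested. Pf4, which encodes a chemokine found in platelets and resident macrophages, was the most abundant at 25.1 to 36.2 CPM in Bbs8+/+ and 27.5 to 39.4 CPM in Bbs8-/- (log2 fold change of 0.13, FDR = 0.837). Lyve1, a hyaluronan receptor of perivascular macrophages and lymphatic endothelium, had the lowest p of that list, at 6.46 to 11 CPM in Bbs8+/+ and 11 to 18.8 CPM in Bbs8-/- (0.65, FDR = 0.29). Of 10 microglia markers, 8 were tested, and 4 values were above 0 and 4 below. The defining microglial transcription factor Sall1 had counts in 1 of the 8 libraries, at 0.393 CPM, and the microglial purine receptor P2ry12 was at 0 to 3.54 CPM. Tmem119 (33.2 to 51.3 CPM over all libraries) and Olfml3 (66.4 to 91.1 CPM) were well detected, of which Tmem119 is also made by cells of the osteoblast lineage. The summed microglia markers, mostly these 2 genes, were 173 ± 9.11 CPM in Bbs8+/+, beside 175 ± 15.6 CPM in Bbs8-/- (SD, n = 4 per genotype). Thus Sall1 and P2ry12 were at or near 0, while Mrc1, Pf4 and Lyve1 were detected in every library.

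Gpr34, a lysophospholipid receptor of microglia and other macrophages, had the lowest p of the microglia list. It was at 0.431, 0.393, 0.934 and 1.05 CPM in Bbs8+/+, at or under the floor, and at 6.06, 3.65, 2.75 and 3.74 CPM in Bbs8-/-. The genotypes did not overlap, the gene passed the filter on low counts through the Bbs8-/- libraries, and the test was missed (FDR = 0.064, edgeR quasi-likelihood test).

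The partners of the 10 genes in their pathways did not pass either. All 6 MHC class II genes had values above 0, with a median log2 fold change of 0.29. H2-Aa, the most abundant, had a log2 fold change of 0.02 (FDR = 0.985), and Ciita, the master regulator of the class II genes, was at 0 to 2.8 CPM in Bbs8+/+ and 0.917 to 6.07 CPM in Bbs8-/- (FDR = 0.221). Of 6 classical complement partners of C1q, 2 were above 0 and 4 below. Serping1, the C1 inhibitor, had a log2 fold change of -0.14 (FDR = 0.369), and the protease gene C1s1 one of -0.66 (FDR = 0.0784). C1s1 was at 19.1 to 33.2 CPM in Bbs8+/+ and 14 to 24.9 CPM in Bbs8-/-, and it passed the test without Bbs8+/+ replicate 3 (FDR = 0.0226) or without Bbs8-/- replicate 1 (FDR = 0.0381). Of 8 genes of the phagocyte lysosome, 3 were above 0 and 5 below. Cst3, which encodes cystatin C and is also strongly made by the RPE, was both the most abundant and the one with the lowest p (log2 fold change of -0.10, FDR = 0.16).

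**Figure D3:**
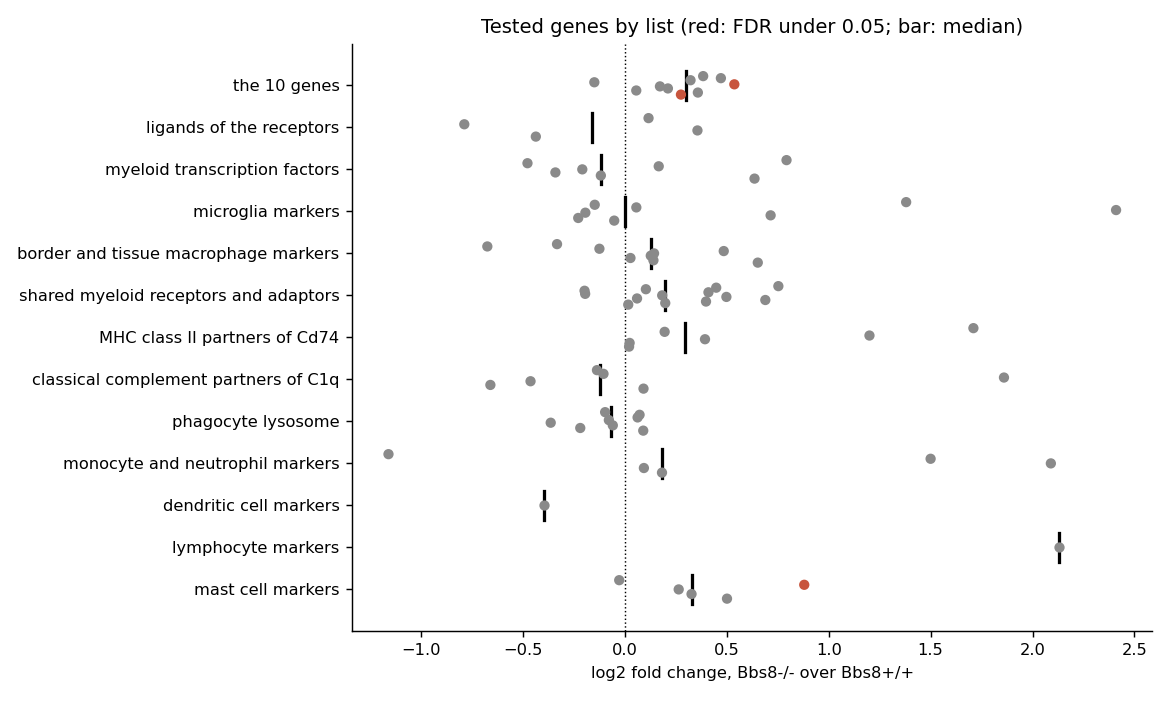
Log2 fold change of Bbs8-/- over Bbs8+/+ (x axis) of every tested gene in the 10-gene group and in 12 lists of macrophage and other immune genes (y axis), with a bar at the median of each list. The genes past FDR 0.05, in red, are Csf1r and Lyz2 in the first line and Tpsb2 among the mast cell markers.

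Other white cells share some of the 10 genes, above all Lyz2, Cd74 and Csf1r. Of 29 markers of monocytes and neutrophils, dendritic cells, lymphocytes and mast cells, 12 were tested. Tpsb2, a tryptase gene of mast cells, rose from 19.4, 21.2, 25.7 and 24.1 CPM to 38.2, 50.1, 36.2 and 42 CPM, a log2 fold change of 0.88 ± 0.18 (SE, FDR = 0.000362, edgeR quasi-likelihood test). The genotypes did not overlap. The other 4 tested mast cell markers did not pass. Monocyte and neutrophil markers were low, with a summed level of 9.81 to 22 CPM in Bbs8+/+ and 14.5 to 22.4 CPM in Bbs8-/-, and the monocyte gene Chil3 was at 0 in all 8 libraries. Plac8 was their most abundant gene (log2 fold change of 0.09, FDR = 0.955). S100a8, a granulocyte gene that had the lowest p, was at 0.467 to 1.29 CPM in Bbs8+/+ and 1.38 to 5.46 CPM in Bbs8-/- (FDR = 0.15). Its Bbs8+/+ counts of 1 to 3 were at or under the floor, and it passed the filter through the Bbs8-/- libraries. The dendritic cell marker Flt3 was at 0 throughout, and Zbtb46, which endothelium also expresses, was the only one of its list tested (log2 fold change of -0.40, FDR = 0.526). Of 7 lymphocyte markers, 6 stayed at or under the floor in every library. Cd79b, a B cell gene, was tested at 0 to 1.05 CPM in Bbs8+/+ and 0.459 to 3.64 CPM in Bbs8-/- (FDR = 0.324). Its counts of 0 to 3 in Bbs8+/+ were at or under the floor, and it passed the filter mostly through the Bbs8-/- libraries.

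Markers of several other tissues moved with genotype in the same libraries as Csf1r and Lyz2. Lens markers summed to 210 ± 15.9 CPM in Bbs8+/+ and 431 ± 10.3 CPM in Bbs8-/-, with 4 of 8 genes higher. Pigment cell markers summed to 14431 and 11986 CPM, with 7 of 8 genes lower, and fibroblast markers to 35722 and 27968 CPM, with 3 of 8 lower. In further lists, Egfl7 of the endothelium, Gfap of glia, Myh8 of muscle and the globin genes Hba-a1 and Hba-a2 were higher, and the 8 RPE markers had 0 genes past the threshold. The Y-linked genes summed to 61.3 ± 2.76 CPM in Bbs8+/+ and 114 ± 6.23 CPM in Bbs8-/-, with 3 of 4 higher, and Xist had a log2 fold change of -0.23 (FDR = 0.00646). The part of these differences in tissue content and in the mix of males and females in the values of Csf1r and Lyz2 was not tested. Of the 24 lists other than the 10 genes and Ttc8, those without overlap between the genotypes reached an exact permutation p of 0.0286, the smallest that 4 against 4 libraries allow, and 0.0527 after adjustment.

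**Figure D4:**
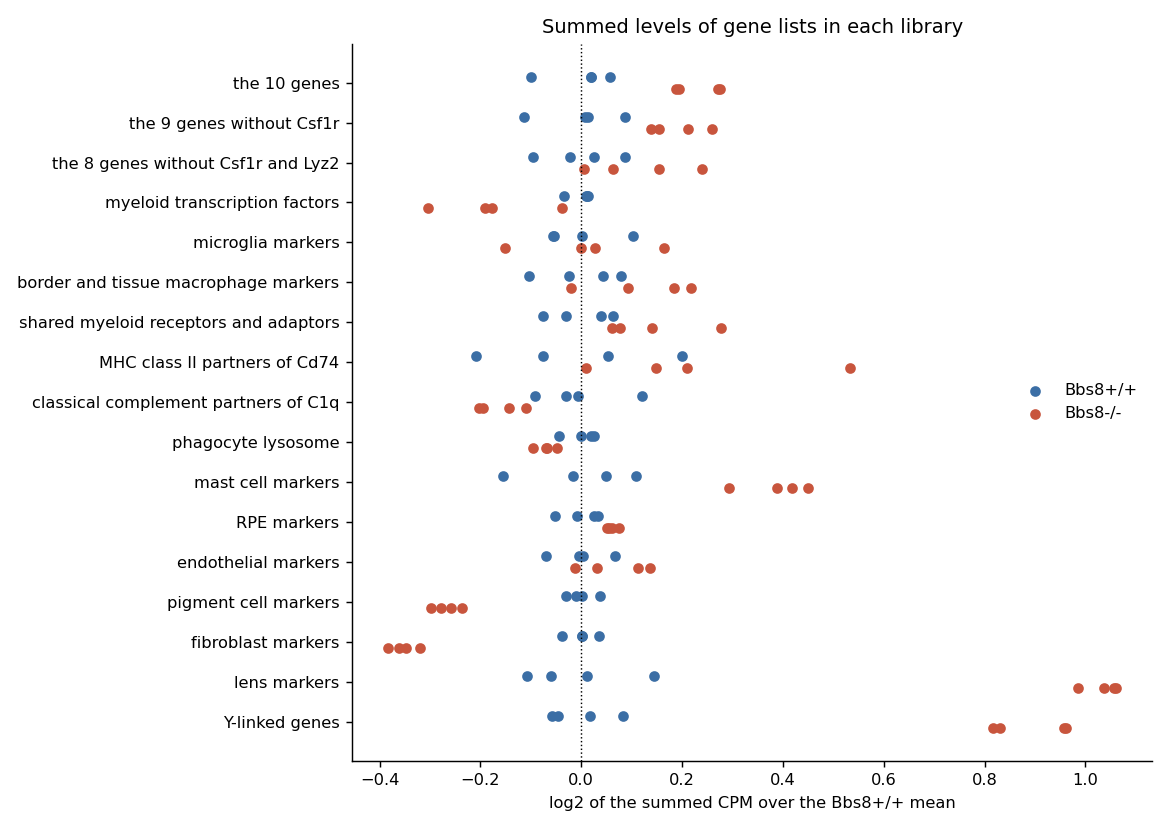
Summed CPM of each gene list in each library as log2 of its ratio to the Bbs8+/+ mean (x axis), for Bbs8+/+ (blue) and Bbs8-/- (red) libraries. The 10 genes lie above all the Bbs8+/+ libraries in each Bbs8-/- library, with and without Csf1r, and overlap without Csf1r and Lyz2, the myeloid transcription factors, classical complement partners and phagocyte lysosome genes lie below, the microglia markers overlap, and the lens and Y-linked genes show the widest gaps.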

How the data were processed

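RNA of 8 eyecup libraries (4 Bbs8+/+, 4 Bbs8-/-) was sequenced at the 3′ end as single reads of 100 bp, from 30 ng of RNA each. The deposited values are raw counts per gene. To make them, the authors trimmed reads with BBDuk, aligned them to mm10 with STAR and counted unique alignments with htseq-count. The strand setting was not stated. Reads outside genes (42.1% to 43.4% of reads in Bbs8+/+, 44.1% to 44.4% in Bbs8-/-) and ambiguous reads (0.309% to 0.323%) were left out of library totals. No molecular identifiers were named, so floors cover counting error only. Symbols and 1-based positions came from GENCODE M21 on mm10, which held 31011 of the 31053 identifiers.

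Genotype was tested by quasi-likelihood in edgeR 4.0.16 (R 4.3.3) without other factors, on TMM-normalized libraries, for genes that reached 1 CPM in 4 or more libraries. P-values are two-sided, with Benjamini-Hochberg adjustment over all tested genes and a threshold of FDR 0.05. Fold changes are on the log2 scale. CPM values are TMM-normalized. Sums of lists were compared by exact permutation. Deviations of log2 CPM used a pseudocount of 1 CPM, with exact permutation within genotype. Scatter is the chi-square of counts around the genotype share, per degree of freedom (6 in all). The procedure was tested on simulated counts.

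The genes and lists were chosen with earlier results of these data known. The text names Ttc8, the 10 genes, and from each macrophage or immune list the genes past FDR 0.05, or otherwise the most abundant gene and that with the lowest p. The rule also covers genes of other tissues past FDR 0.05, most of which are given as counts per list, and 2 such lists are not reported. Csf1, Il34, Spi1 and detection markers were named in addition, after their values were seen. Alternatives were RLE size factors, library totals, filterByExpr, no filter, the Wald test of DESeq2 1.42.0, a replicate block, equal depth, leaving out Gm42418 (15.2% to 18.3% of counts) and mitochondrial genes, each library left out, FDR 0.01, and for deviations a pseudocount of 0.5 CPM.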

Additional observations from a re-analysis of the deposited data

Results flagged for a closer look

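A library lay far from the other 3 of its genotype, by Dixon's ratio, in 6 of the 86 groups of 4 libraries examined, and chance alone gives about 4.3. Csf1r was at 239.1 CPM in Bbs8+/+ replicate 1, beside 258 to 260 CPM in the other Bbs8+/+ libraries, and its call was lost without that library (edgeR FDR = 0.0595). Cd74 was at 14.62 CPM in Bbs8-/- replicate 2, beside 18.2 to 18.8 CPM in the other Bbs8-/- libraries. H2-Aa was at 26.14 CPM in Bbs8-/- replicate 3, beside 17.3 to 18.2 CPM. Cst3 was at 3778 CPM in Bbs8-/- replicate 2, beside 3900 to 3920 CPM. The myeloid transcription factors summed to 306.8 CPM in Bbs8+/+ replicate 3, beside 317 CPM in each of the others. The dendritic cell markers summed to 29.42 CPM in Bbs8+/+ replicate 3, beside 16.4 to 17.5 CPM.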

How the results depend on the processing

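The count of the 10 genes past the threshold was 2 in the fit reported, 1 with DESeq2, 1 at equal depth, 0 at FDR 0.01, and 0 to 2 when a library was left out. It was 0 without Bbs8+/+ replicate 1. Over all tested genes, 152 were higher and 157 lower. These became 93 and 81 at FDR 0.01, and 114 to 172 and 101 to 150 when a library was left out, with the lowest count of lower genes without Bbs8-/- replicate 1. Csf1r kept its direction throughout (0.23 to 0.31 on the log2 scale, FDR of 0.00685 to 0.0961), as did Lyz2 (0.41 to 0.65, FDR of 0.00777 to 0.208). Leaving out a library turned the sign of some small log2 fold changes, none of them called: Cd68 ran from -0.000474 to 0.587, C1qa from -0.0216 to 0.157, Olfml3 from -0.0133 to 0.131, H2-Aa from -0.147 to 0.317 and Plac8 from -0.218 to 0.347. The cause was not tested. Tpsb2 passed FDR 0.05 under each alternative run (highest FDR 0.0111). The median log2 fold change of all tested genes stayed between -0.0131 and 0.0066. Replicate numbers did not pair the libraries (correlations of deviations of 0.0196, 0.00339, -0.0501 and -0.056). With the number as a replicate block, 134 genes were higher and 129 lower, and 2 of the 10 genes passed, Csf1r (0.27, FDR = 0.0241) and Lyz2 (0.52, FDR = 0.044). List sums without a library are values with no test. Cd68 and Adgre1 had only 7 to 30 counts per library.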

Other observations

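Among the 61 tested genes of the further macrophage lists, Spi1, Gpr34, F13a1 and C3 had every Bbs8-/- library above every Bbs8+/+ library. Of these, Gpr34 and C3 passed the filter on low counts only through the Bbs8-/- libraries. Ms4a7, Serping1 and Cst3 had every Bbs8-/- library below. Over all 13813 tested genes, 3.62% lay wholly above and 3.76% wholly below. These genes were picked out after their values were seen, and by edgeR's quasi-likelihood test none of them passed FDR 0.05. F13a1, the coagulation factor XIII subunit of resident macrophages, was at 14.3 to 19.1 CPM in Bbs8+/+ and 19.3 to 28.2 CPM in Bbs8-/- (log2 fold change of 0.48, FDR = 0.335). Ms4a7, a membrane protein of border macrophages, was at 8.26 to 10.8 CPM in Bbs8+/+ and 5.14 to 7.28 CPM in Bbs8-/- (-0.68, FDR = 0.407).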
